A study of Rattus norvegicus with 4 samples.

Results

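The 10 genes described here stand for the identity and the work of the kidney proximal tubule: Aqp1, Hnf4a, Slc5a2, Fbp1, Lrp2, Cubn, Ggt1, Dpp4, Anpep and Mme. They were chosen by name, and all 10 had a probe on the array that could be named through its RefSeq accession, out of 8963 genes named in this way and 39136 features (named genes and unnamed probes) in all. RNA came from the rat renal tubule line NRK-52E, in a series that asks which molecules from dying cells make their neighbours divide. Confluent cells stood for 1 h in DMEM with 0 (the control), 0.003, 0.006 or 0.009% hydrogen peroxide (H2O2), were washed, and were kept for 12 h in DMEM without serum. Total RNA of each dose was labelled with Cy3 and hybridised to 1 Agilent array, so each dose is 1 culture with no replicate, and every value below describes that culture. The 4 arrays lay side by side on 1 slide in the order of dose, and what belongs to position and what to dose cannot be told apart.

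The proximal tubule reclaims most of what the glomerulus filters. Its cells carry a brush border of microvilli set with peptidases, take up filtered protein through megalin and cubilin, draw glucose and phosphate back with sodium, pass water through aquaporin channels, and make glucose from lactate and amino acids. The nuclear receptor HNF4A holds much of this programme in place, and tubule cells that lose it after injury are described as dedifferentiated. NRK-52E cells are widely used as a stand-in for tubule epithelium but keep only part of the programme of the native segment.

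Levels are the log2 of a probe's processed signal over the 75th percentile of all noncontrol spots on its array, so 0 is the level of that percentile. That percentile was 180, 168, 158 and 121 signal units from the control to the highest dose, no spot was saturated, and 51.8 to 54.9% of the probes were well above background by the scanner software's flag. A probe below that flag has only a bound: on the dim side the larger of the measured value and the array's lowest level well above background was taken, and that lowest level was -4.14, -4.08, -3.64 and -3.58 in dose order. Errors (±) are the scanner software's spot error, which covers the measurement of a spot and not the spread between cultures. A difference of 2-fold, which is 1 on the log2 scale, marks size only and carries no test. The choice of scaling matters in this series. Relative to the 75th percentile, scaling to the spike-in probes shifted all features by -0.20, -0.54 and -1.19 over the 3 doses, and scaling to the array median shifted them by -0.15, -0.31 and -0.56.

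Of the 10 genes, 6 were well above background on all 4 arrays: Aqp1, Ggt1, Mme, Anpep, Slc5a2 and Hnf4a. Another 2, Lrp2 and Dpp4, passed background on the control array alone, Cubn passed on the 3 treated arrays alone, and Fbp1 passed at 0.003 and 0.009%. Among the 6 measured throughout, the water channel and 2 peptidases of the brush border were lower than the control at every dose, while the regulator Hnf4a and the glucose carrier Slc5a2 were higher.

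**Figure D1:**
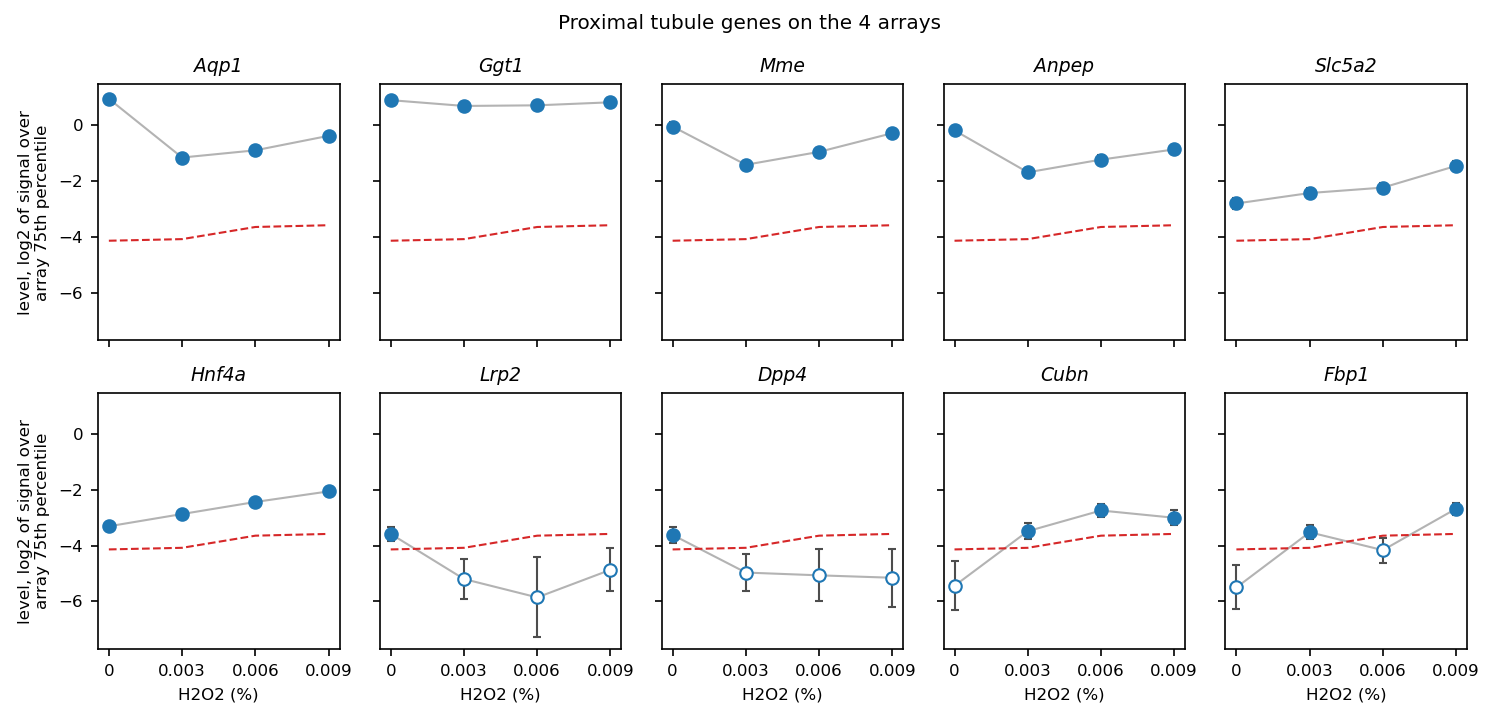
Level of each gene (log2 of signal over the array's 75th percentile) against the dose of H2O2 (%), 1 array per dose, with bars for the spot error; filled points are well above background, open points are not, and the dashed line is the lowest level well above background on each array. Aqp1, Mme and Anpep dip at 0.003%, Slc5a2 and Hnf4a climb with dose, Ggt1 stays between 0.70 and 0.91, and Lrp2, Dpp4, Cubn and Fbp1 lie about the detection limit.

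At 0.003%, none (0) of the 10 genes lay 2-fold or more above the control, against 15.2% of all 22221 features compared, and 3 lay as far below it, against 13.6%. At 0.006%, 1 of 9 was higher (15.5% of 21318 features) and 2 were lower (10.8%). At 0.009%, 4 of 8 were higher (16.9% of 22238 features) and 1 was lower (7.71%). The genes compared are not the same at each dose: Lrp2 and Dpp4 had no fold at 0.009%, and Cubn and Fbp1 entered through the treated arrays where they passed background. Over the 6 genes measured on all 4 arrays, the median difference was -0.79, -0.55 and -0.16, beside 0.03, 0.04 and 0.07 over the 18102 features measured throughout. The counts of higher genes hold bounds: Cubn at 0.006%, and Cubn and Fbp1 at 0.009%, are known only as minimum folds. With spike-in scaling the counts at 0.009% became 0 higher and 6 lower of 9, where 54.3% of all features were lower. With normexp background correction they became 0 and 0, where 4.49% of all features were higher and 3.69% lower. The median over the 6 genes at 0.009% was below 0 under each normalization, from -1.35 with spike-in scaling to -0.14 with quantile normalization and normexp. Over the 18102 features it was -1.12 with spike-in scaling, -0.49 with array median scaling, -0.05 with quantile normalization and 0.10 with normexp.

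The start regions of the 5 genes that were measured throughout and stood apart from the control are shown here, because Aqp1, Anpep and Mme were low together and Hnf4a and Slc5a2 were high together. Each is the 250 bases before the annotated start in RefSeq on GRCr8, 5′ to 3′ on the strand of the gene, and all 10 genes had an entry. Hnf4a has 2 starts in the table, of which the one further along the chromosome is printed. Capitals mark the motifs found.
Hnf4a, chr3:172641586-172641835, plus strand: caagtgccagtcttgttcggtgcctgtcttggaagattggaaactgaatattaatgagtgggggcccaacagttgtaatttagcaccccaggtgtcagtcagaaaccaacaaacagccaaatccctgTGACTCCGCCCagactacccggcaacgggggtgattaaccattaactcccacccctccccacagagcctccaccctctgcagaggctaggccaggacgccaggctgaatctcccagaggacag
Slc5a2, chr1:192277371-192277620, plus strand: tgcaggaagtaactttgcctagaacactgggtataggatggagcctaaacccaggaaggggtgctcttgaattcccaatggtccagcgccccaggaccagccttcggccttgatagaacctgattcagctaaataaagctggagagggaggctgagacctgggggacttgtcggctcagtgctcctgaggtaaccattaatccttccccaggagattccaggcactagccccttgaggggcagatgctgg
Aqp1, chr4:85812534-85812783, plus strand: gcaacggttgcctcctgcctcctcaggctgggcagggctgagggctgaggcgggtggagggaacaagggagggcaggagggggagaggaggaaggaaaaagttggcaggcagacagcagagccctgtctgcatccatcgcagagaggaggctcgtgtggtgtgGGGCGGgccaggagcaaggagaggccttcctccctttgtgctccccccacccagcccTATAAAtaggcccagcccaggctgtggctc
Anpep, chr1:143195102-143195351, minus strand: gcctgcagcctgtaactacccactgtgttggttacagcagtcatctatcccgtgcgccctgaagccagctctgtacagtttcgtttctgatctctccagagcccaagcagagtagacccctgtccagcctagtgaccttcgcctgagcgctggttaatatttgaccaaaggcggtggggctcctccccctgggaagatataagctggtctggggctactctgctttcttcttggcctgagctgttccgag
Mme, chr2:149872247-149872496, plus strand: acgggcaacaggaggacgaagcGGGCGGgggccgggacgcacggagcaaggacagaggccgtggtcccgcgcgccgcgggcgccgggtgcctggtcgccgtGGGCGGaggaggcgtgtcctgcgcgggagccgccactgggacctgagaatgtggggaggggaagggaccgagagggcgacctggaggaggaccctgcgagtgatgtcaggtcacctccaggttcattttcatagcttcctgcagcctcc

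Both strands were searched for 6 motifs, and 33469 rat promoters of the same length give the background. The HNF4A site core CAAAGTCCA, held by 0.338% of promoters, was found in none of the windows of the 10 genes. The antioxidant response element core TGACNNNGC, held by 10.1%, lay 123 bases before the printed Hnf4a start and at 71 bases in Fbp1. Its first bases can be shared with the AP-1 element TGACTCA, held by 4.05%, which was in none of the windows. The heat shock element pair GAANNTTC, held by 7.23%, occurred in Cubn at 53 bases. The TATA box TATAAA, held by 12.9%, occurred in Aqp1 at 30 bases, and the SP1 box GGGCGG, held by 30.5%, occurred in Aqp1, Mme, Lrp2, Fbp1 and both Hnf4a starts. Slc5a2, Anpep, Dpp4 and Ggt1 held none of the 6. The antioxidant core and the SP1 box of the printed Hnf4a window share bases. A match is a string of letters and not a measured site.

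Aqp1, the channel through which water crosses both faces of the proximal tubule cell, was, of the 6 genes measured throughout, the furthest below its control level at each dose. Its probe was printed 10 times on each array. On the control array the 10 spots ran from 0.88 over a median of 0.94 to 1.04, and at 0.003% the 9 spots kept ran from -1.20 over -1.16 to -1.10. At 0.006% the 10 spots ran from -0.96 over -0.89 to -0.84, and at 0.009% the 7 spots kept ran from -0.45 over -0.39 to -0.29. The spots of any 2 arrays did not overlap, and the order of the levels was control, 0.009%, 0.006% and 0.003%. The log2 difference from the control was -2.11 ± 0.07, -1.85 ± 0.07 and -1.33 ± 0.07 over the 3 doses, which is 4.31-fold, 3.60-fold and 2.51-fold lower. At 0.003%, 306 of the 18993 features measured on both arrays lay further down.

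The return of Aqp1 towards the control with dose hung on the scaling. Its unscaled signal was 349.7 on the control array and 75.4, 85.1 and 93.7 on the treated ones. With spike-in scaling the differences were -2.31, -2.39 and -2.52, in the opposite order. Aqp1 was below the control at every dose under each of the 5 normalizations and in the value table, and came nearest to it at -0.97, with normexp at 0.009%.

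Anpep and Mme encode aminopeptidase N and neprilysin, peptidases anchored in the brush border that trim peptides in the filtrate. Anpep stood at -0.18, -1.68, -1.23 and -0.86 from the control to 0.009%, and Mme at -0.04, -1.41, -0.95 and -0.28. Both were highest on the control array and lowest at 0.003%, as Aqp1 was. Anpep differed from the control by -1.50 ± 0.21, -1.05 ± 0.21 and -0.68 ± 0.21, and Mme by -1.37 ± 0.21, -0.91 ± 0.21 and -0.24 ± 0.21. Each is 1 spot per array. For Mme at 0.009% the difference was within 2 spot errors, and for Anpep the step from 0.006 to 0.009%, at 0.37 ± 0.22, was too. With spike-in scaling Anpep was at -1.70, -1.59 and -1.87 and Mme at -1.57, -1.45 and -1.43. Under that scaling Anpep was lowest at 0.009%, and Mme kept its lowest value at 0.003%. With normexp both were nearer to 0, at -0.87 and -0.83 at 0.003%.

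Ggt1, the gamma-glutamyltransferase that breaks down glutathione on the brush border, stayed close to its control level with this scaling. It stood at 0.91, 0.70, 0.72 and 0.83, with differences of -0.21 ± 0.20, -0.19 ± 0.20 and -0.08 ± 0.20. None of its steps exceeded 2 spot errors. With array median scaling it was at -0.35, -0.50 and -0.64, and with spike-in scaling at -0.41, -0.73 and -1.27.

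Dpp4, dipeptidyl peptidase 4, is another peptidase of the brush border. It stood at -3.62 on the control array, just above the detection limit, and at -4.97, -5.07 and -5.15 on the treated arrays, none of them well above background. It was therefore at least 1.38-fold lower at 0.003% and at least 1.02-fold lower at 0.006%, and at 0.009% no fold could be given. Megalin (Lrp2) and cubilin (Cubn) are the paired receptors that take filtered protein into the cell. Lrp2 stood at -3.58, -5.20, -5.86 and -4.87, and was well above background on the control array only. It was at least 1.41-fold lower at 0.003% and at least 1.04-fold lower at 0.006%, with no fold at 0.009%. Cubn stood at -5.44, -3.48, -2.74 and -3.00, and was well above background on each treated array but not on the control. Its lower bounds were 1.57-fold, 2.63-fold and 2.20-fold higher than the control. The bounds of the 2 receptors thus point in opposite directions, and each rests on 1 faint spot per array. With normexp the Cubn bounds were 0.23, 0.47 and 0.57 on the log2 scale, and with spike-in scaling no fold was left at 0.009%.

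Hnf4a was faint but measured on every array, by a probe printed 10 times. The control spots ran from -3.71 over a median of -3.34 to -2.89, and the 8 spots kept at 0.003% from -2.97 over -2.89 to -2.67. At 0.006% the 10 spots ran from -2.75 over -2.49 to -1.95, and at 0.009% the 8 spots kept from -2.26 over -2.11 to -1.73. Neighbouring doses overlapped in their spots, while no spot at 0.006 or 0.009% was as low as any control spot. The mean differed from the control by 0.44 ± 0.11, 0.87 ± 0.10 and 1.25 ± 0.10, and each step of dose by more than 2 spot errors. A second Hnf4a probe, with 1 spot per array, read -3.22, -3.15, -2.88 and -2.66. It also climbed with dose, but by 0.07 ± 0.33, 0.34 ± 0.34 and 0.56 ± 0.33, which are all within 2 spot errors.

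**Figure D2:**
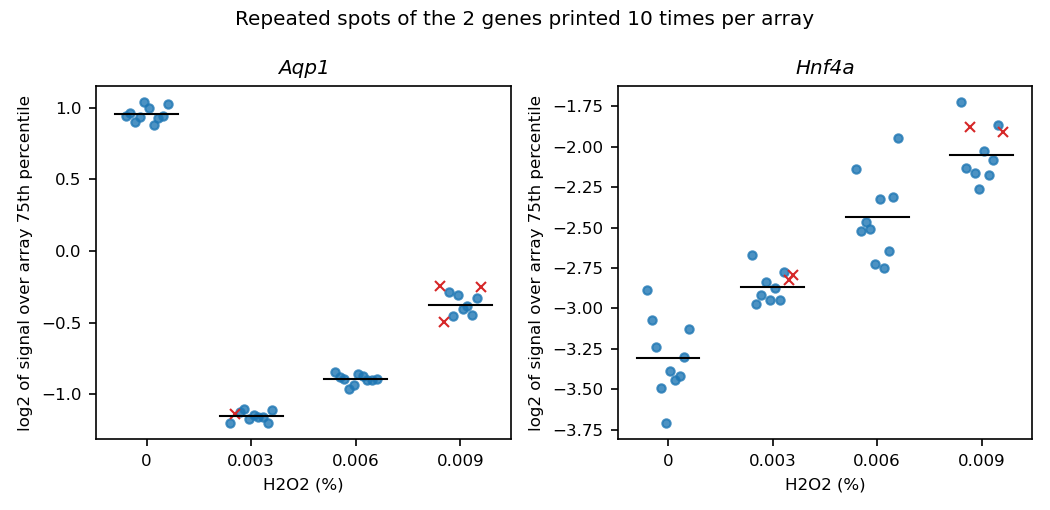
Every spot of the repeated Aqp1 and Hnf4a probes on each array, as log2 of signal over the array's 75th percentile against the dose of H2O2 (%); circles are spots used, crosses are spots the scanner software marked as outliers, and lines are means of the spots used. The Aqp1 spots form 4 separate levels, lowest at 0.003%, and the Hnf4a means climb from -3.31 to -2.05 with overlap between neighbouring doses.

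Slc5a2 encodes SGLT2, the sodium-glucose carrier of the early proximal tubule. Of its 2 probes, the one with the higher mean level over the 4 arrays was used and is called the brighter. It read -2.80, -2.43, -2.23 and -1.45, with differences of 0.37 ± 0.25, 0.57 ± 0.26 and 1.35 ± 0.25. The 2 lower doses did not differ from each other beyond 2 spot errors (0.19 ± 0.25), and the last step was 0.78 ± 0.24. The other Slc5a2 probe read -6.03, -2.48, -1.86 and -1.42, and so lay above the first at 0.006 and 0.009%. The order of the 2 by mean level rests on the control spot. On the 3 treated arrays the readings of these 2 probes were close, but on the control array the second was not above background, and it gave folds of at least 3.16, 4.86 and 6.59. The mean difference over both probes, which holds those bounds, was at least 1.02, 1.43 and 2.04 on the log2 scale.

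Fbp1, fructose-1,6-bisphosphatase, carries out a late step of glucose synthesis. Its brighter probe read -5.50, -3.52, -4.16 and -2.68, of which the readings at 0.003 and 0.009% were well above background. It was at least 1.53-fold higher at 0.003% and at least 2.75-fold higher at 0.009%. The second Fbp1 probe read -6.03, -5.89, -5.57 and -4.19 and was below background on all 4 arrays.

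The climb of Hnf4a and Slc5a2 was bound to the scaling as well. At 0.009%, Hnf4a was at 0.88 with quantile normalization, 0.69 with array median scaling, 0.61 with normexp and 0.06 with spike-in scaling. Slc5a2 was at 1.14, 0.79, 0.82 and 0.16 under the same 4. Before scaling, the Hnf4a signal was 18.2, 23.0, 29.2 and 29.2, and the brighter Slc5a2 probe read 25.9, 31.2, 33.7 and 44.3. By the probe used for each gene, none of the normalizations put either below the control at any dose. The second Hnf4a probe read 19.4, 18.8, 21.5 and 19.2 before scaling. Its differences of 0.07, 0.34 and 0.56 are smaller than the spike-in shifts of -0.20, -0.54 and -1.19. Spike-in scaling therefore put that probe below the control at each dose, and array median scaling, with a shift of -0.15, at 0.003%. At 0.009% array median scaling, with a shift of -0.562 beside the difference of 0.559, put it marginally below the control as well.

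**Figure D3:**
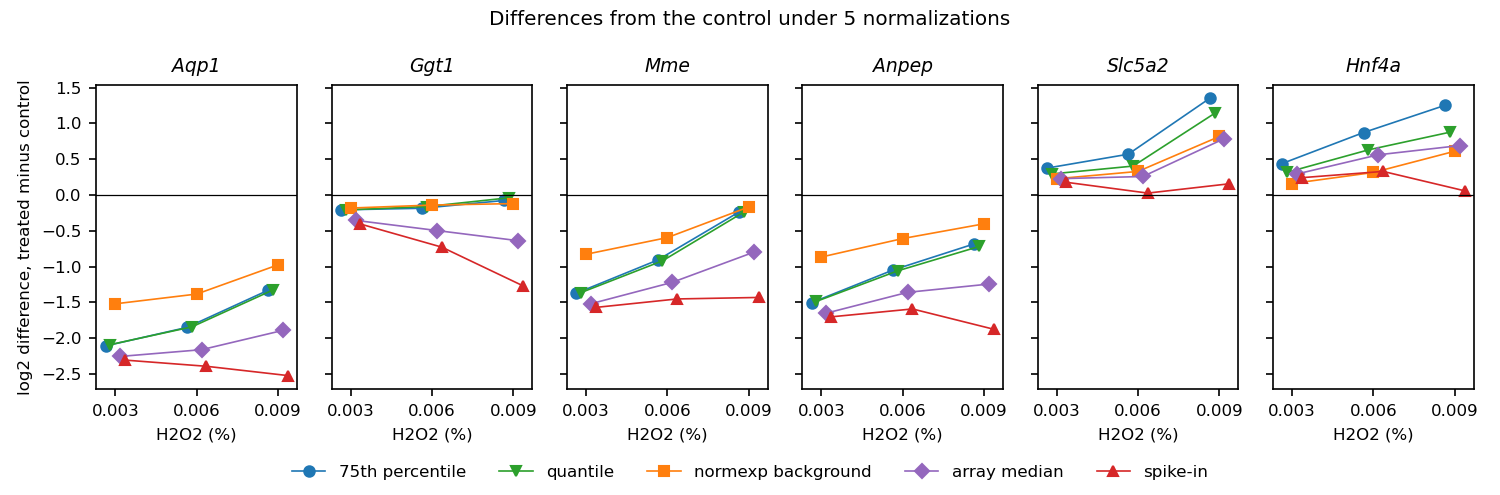
Log2 difference from the control array against the dose of H2O2 (%) for the 6 genes measured on all arrays, under 5 normalizations given by colour and marker, 1 array per dose. At 0.009% the spread between normalizations is widest, from -2.52 to -0.97 for Aqp1 and from 0.06 to 1.25 for Hnf4a, and in none of them does a gene cross 0.

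A factor common to an array cancels when 2 probes are followed on the same arrays, so the differences were also taken relative to that of Ggt1, which was chosen after its values were seen. The Aqp1 difference was below that of Ggt1 by -1.90 ± 0.22, -1.66 ± 0.22 and -1.25 ± 0.22, and by -1.34, -1.24 and -0.85 with normexp. Anpep was at -1.30, -0.86 and -0.61 and Mme at -1.16, -0.72 and -0.16 relative to Ggt1, each ± 0.29 or 0.30. Hnf4a was at 0.65 ± 0.23, 1.06 ± 0.23 and 1.33 ± 0.23 and Slc5a2 at 0.58 ± 0.33, 0.75 ± 0.33 and 1.43 ± 0.32. With normexp Hnf4a was at 0.34, 0.46 and 0.73 and Slc5a2 at 0.41, 0.47 and 0.94. Mme at 0.009% and Slc5a2 at 0.003% lay within 2 spot errors of Ggt1. Aqp1 and Hnf4a lay beyond 2 spot errors of it at every dose, under any scaling by 1 factor, while with normexp Hnf4a at 0.003 and 0.006% did not.

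A straight line over the 4 doses was fitted with limma to the 18102 features well above background on all arrays, with 2 residual degrees of freedom. It called 0 features, 0.0% of those tested, at a Benjamini-Hochberg adjusted p under 0.05, while 2064 had an unadjusted p under 0.05. The slope per step of 0.003% was 0.42 ± 0.10 (SE) for Hnf4a and 0.42 ± 0.11 for Slc5a2, both with an adjusted p of 0.397 in limma. It was -0.37 ± 0.31 for Aqp1 and -0.16 ± 0.24 for Anpep, with limma adjusted p-values of 0.648 and 0.802. For Mme and Ggt1 it was -0.02 ± 0.25 and -0.02 ± 0.11, with limma adjusted p-values of 0.976 and 0.950. With the 3 treated arrays as 1 group against the control, limma called 999 of 18102 features (5.52%) and none of the 6 genes. That fit takes 3 different doses for replicates and has no spread in the control, which is 1 array. Aqp1 was at -1.76 ± 0.37 in it, with a limma adjusted p of 0.0536. Without the control array, a line through the 3 treated doses called 7307 features (40.4%), among them Hnf4a, Slc5a2, Aqp1, Anpep and Mme, all 5 with a slope above 0. That line has 1 residual degree of freedom. A call by it tells how straight 3 single arrays lie and measures no spread between cultures. With spike-in scaling that line called 12282 features, 12035 of them falling, and none of these 5 genes, whose slopes lay between -0.11 and 0.07. Ggt1 was among the features called as falling there, with a slope of -0.43 beside a median of -0.45 over all features tested. With array median scaling Mme alone of the 5 was called. Without the 0.003% array it called 695, and without the 0.006% or the 0.009% array 0.

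The genes whose differences ran closest to a member's, by Euclidean distance over the 3 log2 differences among 4985 other named genes measured on all arrays, were taken as a description of 4 arrays. Closest to Aqp1 were the metalloproteinase inhibitor Timp3 (distance 0.08), the chromatin remodeller Smarca2 (0.10) and the citrate carrier Slc13a5 (0.13). Closest to Hnf4a were the small heat shock protein Hspb1 (0.06) and Slc25a47 (0.09). Prok1, Srd5a2 and Tmem54 lay nearest to Slc5a2, at 0.16 to 0.20. For Anpep they were Cyb561a3, Fig4 and Marchf2, at 0.08 to 0.11, for Mme Rnf166, Csad and Tle2, at 0.05 to 0.09, and for Ggt1 Atp5pf, Rmdn1 and Ankrd46, each at 0.04.

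Wider lists place the 10 genes within the programme of the tubule. Of the genes of brush border and endocytosis, 14 of the 22 with a probe were measured on at least 1 array, and over the 13 measured on all arrays the median difference was -0.50, -0.36 and -0.19. At 0.003%, 2 of 14 lay 2-fold or more above the control and 4 below, at 0.006% 1 of 13 was higher and 1 lower, and at 0.009% 0 of 13 were either. Over all features the shares were 15.2, 15.5 and 16.9% higher and 13.6, 10.8 and 7.71% lower over the doses. Nherf1, the scaffold that ties carriers and ezrin to the microvillus, was at -1.63 ± 0.20, -1.24 ± 0.20 and -0.85 ± 0.20. Its relative Nherf2 was at -1.01, -0.74 and -0.52, the endocytic adaptor Dab2 at -1.18, -0.85 and -0.19, and Ggt5 at -1.12, -0.62 and -0.42. With this scaling, these 4 genes were lowest at 0.003%, where Aqp1, Anpep and Mme were lowest too. The microvillar cadherin Cdhr5 was at 0.50, 1.39 and 0.86, the actin bundler Espn at -0.07, 0.36 and 0.70, and the endosomal chloride exchanger Clcn5 at 1.06, 0.31 and 0.16. With spike-in scaling all 3 were below 0 at 0.009%, and Espn and Clcn5 at 0.006% too. Clcn5 was also below 0 at 0.009% with quantile and array median scaling.

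Of the proximal tubule transporters, 27 of the 46 with a probe were measured somewhere, and the 18 measured on all arrays had medians of 0.08, -0.11 and 0.13. Each of these medians changed sign under at least 1 other normalization, the last to -0.04 with quantile normalization, -0.44 after array median scaling and -1.07 after spike-in scaling. The median of all features measured throughout was -0.05, -0.49 and -1.12 under those 3. Over the doses, 4 of 24, 6 of 24 and 4 of 23 lay 2-fold or more above the control, and 2, 1 and 3 below. That is 16.7, 25.0 and 17.4% higher, beside 15.2, 15.5 and 16.9% of all features. Lower were 8.33, 4.17 and 13.0%, beside 13.6, 10.8 and 7.71% of all features. Slc3a2, the heavy chain of amino acid carriers that serves nearly every cell, was 8.99-fold, 9.80-fold and 6.07-fold higher, the last 2.65-fold with spike-in scaling. Slc13a3, a sodium-dependent carrier of dicarboxylates, was below background on the control array and had lower bounds of 13.1-fold, 11.5-fold and 13.1-fold higher with this scaling. With normexp, which adds 50 to every signal and so draws faint probes towards 0, the bounds were 2.86-fold, 2.69-fold and 2.92-fold. Slc2a5, the fructose carrier GLUT5, was at -2.10, -1.68 and -1.04, close to the values of Aqp1, and the efflux pump Abcc4 was at -0.18, -0.78 and -1.47. The organic cation exchanger Slc47a1 was at least 2.43-fold and 2.41-fold higher at the 2 upper doses, and Slc6a13 was at least 2.84-fold higher at 0.003%, the single array where it passed background. Slc47a1 was under 2-fold with each of the other normalizations, and Slc6a13 with normexp.

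Among the genes of proximal tubule metabolism, 29 of the 48 with a probe were measured somewhere, and the 18 measured on all arrays had medians of -0.82, -0.58 and -0.39. The medians of these 18 were below 0 at each dose under every normalization. The last was -1.58 with spike-in scaling, beside -1.12 over all features measured throughout. Over the doses, 6 of 23, 4 of 22 and 3 of 28 lay 2-fold or more below the control, and 3, 3 and 5 above. All features gave 13.6, 10.8 and 7.71% lower and 15.2, 15.5 and 16.9% higher. The higher genes at 0.003 and 0.006% were G6pc1, Akr7a3 and Dao, all known only as bounds. At 0.009% Hao2, also a bound, and Gatm, measured on both arrays, joined them. Cpt2, which prepares fatty acids for oxidation in mitochondria, was at -1.60, -1.45 and -1.07. Fbp2, the muscle-type relative of Fbp1, was at -1.52, -0.92 and -0.44. G6pc1, the glucose-6-phosphatase that completes glucose synthesis after Fbp1, had lower bounds of 2.51-fold, 4.47-fold and 7.02-fold higher. The aldehyde reductase Akr7a3 had lower bounds of 4.52-fold, 4.22-fold and 3.29-fold, D-amino acid oxidase (Dao) of 3.08-fold, 2.85-fold and 2.63-fold, and Hao2 of 2.23-fold at 0.009%. All of these bounds start from a control spot below background. With normexp the G6pc1 bounds were 1.35-fold, 1.70-fold and 2.16-fold, and those of Akr7a3 and Dao were under 2-fold at each dose. At 0.009% spike-in scaling gave G6pc1 3.07-fold, Akr7a3 1.44-fold and Dao 1.15-fold, and no bound for Hao2, which array median scaling put at 1.51-fold.

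Of the nephron transcription factors, 9 of the 18 with a probe were measured somewhere, and the 7 measured on all arrays had medians of -0.24, -0.22 and -0.16, the second of them above 0 with normexp (0.02). Over the doses, 3 of 8, 4 of 9 and 3 of 9 lay 2-fold or more above the control, and 2 below it at each. All features gave 15.2, 15.5 and 16.9% higher and 13.6, 10.8 and 7.71% lower. Foxj1, the regulator of motile cilia, was 15.0-fold, 18.9-fold and 24.7-fold higher, and 4.39-fold, 5.28-fold and 6.45-fold higher with normexp. Irx2 was at 1.94, 1.79 and 1.50, and Gata3, a factor of the collecting system, at least 6.40-fold, 3.26-fold and 2.77-fold higher. With normexp the Gata3 bounds were 1.90-fold, 1.53-fold and 1.63-fold, and with spike-in scaling Irx2 was 1.23-fold higher at 0.009%. Nr0b2, a corepressor that acts on HNF4A among other receptors, was at -2.82 ± 0.20, -2.06 ± 0.20 and -1.06 ± 0.20, and the glucocorticoid receptor Nr3c1 at -1.23, -1.37 and -1.35. Pax8 and Lhx1 were below background on all arrays.

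**Figure D4:**
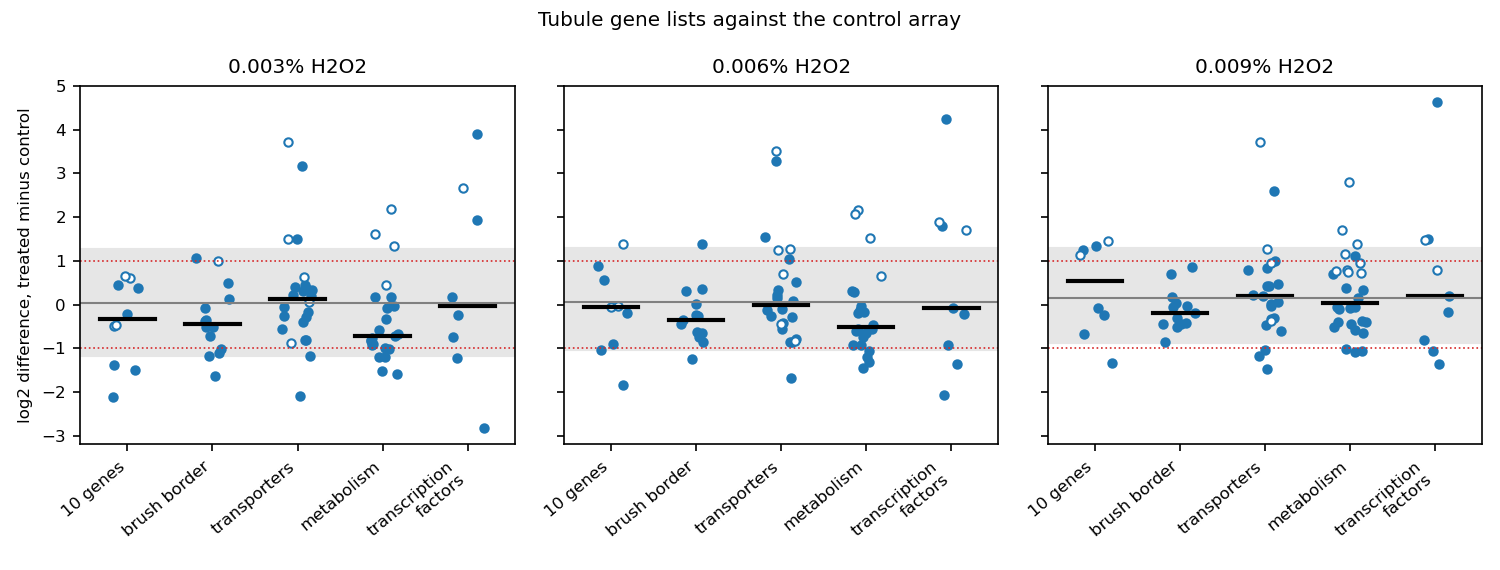
Log2 difference from the control array at each dose for the 10 genes and for 4 wider lists of tubule genes; filled points are measured on both arrays, open points are bounds, black lines are list medians, the grey line and band are the median and the 10th to 90th percentiles of all features, and dotted lines mark 2-fold. The lines run over the genes compared at each dose, which differ between doses: the metabolism list holds 23 genes at 0.003% and 28 at 0.009%, of which 9 are bounds.

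Defining genes of other cells were read on the same arrays, scaled alike. Of genes that define the native proximal tubule, Slc34a1, Slc22a6, Slc22a8, Slc9a3, Slc5a1, Slc2a2 and Miox were below background on all 4 arrays, named here with their values known. Of 23 genes with a probe for other nephron segments, 8 to 10 were well above background on an array, with a summed level of 3.39 to 5.25 times the 75th percentile. Aqp3, a collecting duct channel, was at 0.98, 0.97 and 1.56, Aqp2 at 0.05, 0.26 and 0.58, Slc26a4 at 1.32, 0.80 and 1.16, and Podxl at -1.21, -0.96 and -0.65. Aqp2 at every dose and Slc26a4 at 0.009% were below 0 with spike-in scaling, and Aqp2 with array median scaling at 0.003 and 0.006%. Umod, Slc12a3 and Nphs1 were below background on all arrays. Of 13 epithelial genes, 7 or 8 were well above background on an array, summing to 40.2 to 61.5. Most of that sum is Krt8, at a control level of 5.89, with Ocln next at 0.20. Krt8 was at -0.09, -0.44 and -0.68, Krt18 at 4.65-fold, 6.76-fold and 8.55-fold higher, Krt19 at -0.26, 1.01 and 1.64, Ocln at 0.36, -0.32 and -0.21, and Cdh2, the cadherin of proximal tubule cells, at bounds of -2.14 and -1.90 and then -1.16. With normexp Krt18 was 1.68-fold, 2.07-fold and 2.43-fold higher and Cdh2 at -0.62, -0.49 and -0.15.

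Of 8 fibroblast genes with a probe, 5 were well above background on every array, summing to 228 to 339, and Dcn, Lum and Thy1 were below background on all. Most of that sum is S100a4, whose control level was 7.90. Vim stood there at 5.40, Col3a1 at 4.72, Pdgfrb at 1.78 and Col1a2 at 1.19. The sums of the lists thus do not compare kinds of cell. S100a4 was at -0.33, -0.19 and 0.24, the last below 0 with quantile, array median and spike-in scaling, Vim at -0.57, -0.39 and -0.18, and Col3a1 at -1.74, -1.22 and -0.70. The list's median of -1.74, -1.22 and -0.51 ran beside the values of Aqp1, Anpep and Mme. Of 5 endothelial genes, Kdr and Eng were above background, at 0.92, 1.20 and 1.59 and at 1.67, 1.57 and 1.21, summing to 0.20 to 0.53, and Pecam1, Flt1 and Emcn were not. Of 6 macrophage genes 2 or 3 passed on an array, summing to 2.45 to 4.39, with Cd68 at 0.28, 0.79 and 0.88, the last below 0 with spike-in scaling. Adgre1 was at 0.61, a bound of -0.75 and then -0.32, and Aif1 at bounds of -0.51 and -0.05 and then 0.93. At 0.009% Aif1 was below 0 with spike-in scaling (-0.26) and Adgre1 above 0 with normexp (0.21). In a bulk sample, fewer cells of a kind and less RNA per cell cannot be told apart, and the part of these genes' cells in the results above was not tested.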

How the data were processed

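The authors extracted spots by protocol GE1_107_Sep09 of Agilent Feature Extraction, version 10.7.3.1, per the file headers. The deposited processed signal is a linear intensity, background-subtracted and detrended, with no scaling between arrays. Values of the deposited table are a linear ratio, equal in 100% of probes to the mean processed signal of a probe's spots over the array median within a relative tolerance of 1e-06. Column medians were 0.962, 0.955, 0.965 and 0.972, and it served as an alternative.

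Outlier spots were left out and log2 signals averaged per probe. A probe counted as well above background where more than 0.5 of its spots were. Of 41012 probes, 41007 were used, and 10834 were named through RefSeq accessions (GRCr8 gene table). The array was annotated on rn4, so no probe positions are given. A gene took its brightest probe, by the mean level over the 4 arrays. Limma 3.58.1 in R 4.3.3 fitted the trend, after a check on simulated data. Normexp (offset 50) used the median spot signal with the local background. Alternatives were array median, quantile and spike-in scaling, normexp, the value table, both arrays above background, and the mean over probes. The samples are 4 cultures with no replicate, so the number of arrays limits the precision. Single doses got no p-value.

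The 10 genes and all lists were chosen with earlier results of these data known. Named list genes are the 4 with the largest difference at 0.009% and at 0.003% in each wider list, and in marker lists the 3 brightest on the control and those past 2-fold at 0.009%. Some genes and motifs that these rules cover are not reported here.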

Additional observations from a re-analysis of the deposited data

How the results depend on the processing

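Of 114 values under an alternative to a difference measured on both arrays, 66 lay within 2 spot errors of the reported one, 48 did not, and 0 changed sign. Another 43 belong to bounds, which have no such error. A bound that would have changed sign was dropped as giving no fold, so the bounds cannot show a change of sign. The cause of the changes was not tested. At 0.009% the count of the 10 genes at least 2-fold higher, 4 as reported, was 0 with array median scaling, the value table, spike-in scaling or normexp, 1 with quantile normalization, and 2 with only features above background on both arrays. Of all features, 6.03, 6.04, 2.53, 4.49, 10 and 12% were higher in the same order, and 16.9% as reported. The count lower, 1 of 8 as reported, was 2 of 10 with array median scaling or the value table, 6 of 9 with spike-in scaling and 0 of 8 with normexp. All features gave 7.71% lower as reported, 22.7% with array median scaling or the value table, 54.3% with spike-in scaling and 3.69% with normexp. At 0.006%, 1 higher became 0 with spike-in scaling, normexp or both arrays above background, and 2 with the mean over probes. Of all features, 6.64% were higher with spike-in scaling, 6.17% with normexp and 13% with both arrays above background. The 2 lower became 1 with normexp, and 3 with array median scaling, the value table or spike-in scaling. All features gave 5.2% lower with normexp, 18.5% with array median scaling or the value table, and 26.4% with spike-in scaling. At 0.003%, 3 lower became 1 with normexp, beside 6.19% of all features, and 0 higher became 1 with the mean over probes. Both gains with that mean are Slc5a2, through a probe known as a bound. Shares of all features moved with the setting too, and those beside the wider lists follow.

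Summed over the 4 wider lists, 12, 14 and 12 genes were at least 2-fold higher and 14, 8 and 8 lower over the doses. The genes compared were 14, 13 and 13 for brush border and endocytosis and 24, 24 and 23 for transporters. For metabolism they were 23, 22 and 28, and for transcription factors 8, 9 and 9. Of all features, 15.2, 15.5 and 16.9% were higher and 13.6, 10.8 and 7.71% lower. With array median scaling or the value table there were 18 lower at 0.006%, and 5 higher and 17 lower at 0.009%. The numbers compared at these doses were the same as above. All features then gave 18.5% lower at 0.006%, and at 0.009% 22.7% lower and 6.03 or 6.04% higher. Spike-in scaling gave 8 higher and 26 lower at 0.006%, and 4 and 42 at 0.009%. At 0.009% it compared 13, 22, 22 and 8 genes of the 4 lists, in the order above. Under it, 6.64% of all features were higher and 26.4% lower at 0.006%, and 2.53 and 54.3% at 0.009%. Quantile normalization gave 7 higher at 0.009%, beside 10% of all features. Normexp gave 5 higher at each dose and 9 lower at 0.003%. Beside this, 6.71, 6.17 and 4.49% of all features were higher, and 6.19% lower at 0.003%. With both arrays above background 5, 6 and 5 were higher, beside 14, 13 and 12% of all features. The trend called 0 features with each scaling, normexp, the value table, or features above background on 1 array. It called 999 with the treated arrays together, and 0 to 7307 with 1 array left out. Without the control it called 8391 after array median scaling, 6353 after quantile normalization, 12282 after spike-in scaling and 9315 after normexp, pairs of settings chosen after seeing the data. Of all features past 2-fold at 0.009%, 68.7% were higher, and 21.0% with array median scaling. Quantile normalization gave 47.2%, spike-in scaling 4.45% and normexp 54.9%. No paired analysis was possible because each dose has 1 array. Faint probes limit Lrp2, Dpp4, Cubn and Fbp1 to bounds.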

Other observations

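The probes of Slc5a2 gave unlike pictures of the control culture. Their processed signals on the treated arrays were 31.2 and 30.1 at 0.003%, 33.7 and 43.7 at 0.006% and 44.3 and 45.4 at 0.009%, but 25.9 and 2.75 on the control array, each from 1 spot. Which part of the transcript each probe reads is not given in the sources used here, and the cause was not tested. Other genes of glucose synthesis in the metabolism list had unlike values: G6pc1 had a bound of 2.81 on the log2 scale at 0.009%, Pck1 was well above background at 0.009% alone with a bound of 0.96, and G6pc3, the form present in most tissues, was at -0.58, -0.65 and -0.52. Pck1 and G6pc3 were named after their values were seen.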
